A study of Mus musculus with 12 samples.

Results

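The genes described here encode 8 enzymes of bile acid synthesis: Cyp7a1, Cyp8b1, Cyp27a1, Cyp7b1, Cyp39a1, Akr1d1, Hsd3b7 and Baat. They were chosen by name, and all 8 were found among the 22180 genes measured, each through 1 transcript cluster, the set of short probes that the array combines into a single value for a gene. Expression was read in 12 livers on 1-colour Affymetrix MoGene-2_0-st arrays, 1 array per mouse, from 6 Ppara KO mice, in which the gene of the nuclear receptor PPARα is knocked out, and 6 WT mice. Both groups were female C57Bl/6 adults of 12 to 14 weeks, and no treatment is named for either. The labels give the genotype only as Ppara KO. The sources used here do not name the allele, the cells that lack the gene, the hour of collection or the feeding state.

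Bile acids are made from cholesterol in hepatocytes and carry lipids into bile and gut. The classic pathway opens with CYP7A1, its rate-limiting enzyme, and branches at CYP8B1, the sterol hydroxylase needed for cholic acid. The alternative pathway opens with the mitochondrial hydroxylase CYP27A1 and continues with the oxysterol hydroxylase CYP7B1. Both pathways then share enzymes that rebuild the steroid ring, among them HSD3B7 and AKR1D1, and BAAT joins the finished acid to taurine or glycine. Bile acids restrain their own synthesis through the receptor FXR.

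All values are log2 values made by RMA, so a step of 1 is a doubling. RMA brings arrays to a common distribution and shrinks differences of dim genes. The lowest value of any of the 8 genes on any array was 7.32, where the medians of the arrays lay between 4.13 and 4.17. Ppara itself was at 7.81 to 8.16 in Ppara KO livers and at 7.71 to 8.14 in WT livers, so its probes did not separate the genotypes. Which exons they read, and which exons the knockout removes, was not stated, so Ppara checks nothing here. The hepatocyte markers bore out the tissue label, with a mean level of 11.46 to 11.58 in Ppara KO livers and 11.55 to 11.65 in WT livers, and 0 of 15 called by limma (2 at an unadjusted p under 0.05). WT livers 1, 3 and 5 held more adipocyte marker RNA than the rest, with values given beside the results they touch.

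Of the 8 enzyme genes, 1 rose and 2 fell in Ppara KO livers at an adjusted p under 0.05 (limma, Benjamini-Hochberg over all genes), and 5 were not called. Cyp7b1 of the alternative pathway was 2.23-fold higher in Ppara KO, while Hsd3b7 was 1.72-fold lower and Cyp8b1 1.62-fold lower. Called members made up 37.5% of the list, where 10.2% of all genes were called, 4.46% higher and 5.77% lower. The fit limited to the 9748 genes with a mean of at least 5, which hold all 8 members, called 2774 genes and 3 members. That is a larger share than over all genes, most of which have a mean under 5. The median difference was -0.12 over the 8 genes and 0.0090 over all genes. The 6 values of one genotype stood clear of the other 6 for 2 members, Cyp7b1 and Hsd3b7, or 25% of the list, an arrangement found in 6.51% of all genes. All 3 called members also differed at least 1.5-fold, and 2.29% of all genes were both called and at least 1.5-fold apart. Because the members were chosen with earlier results of these data known, these shares describe the list and test nothing.

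**Figure D1:**
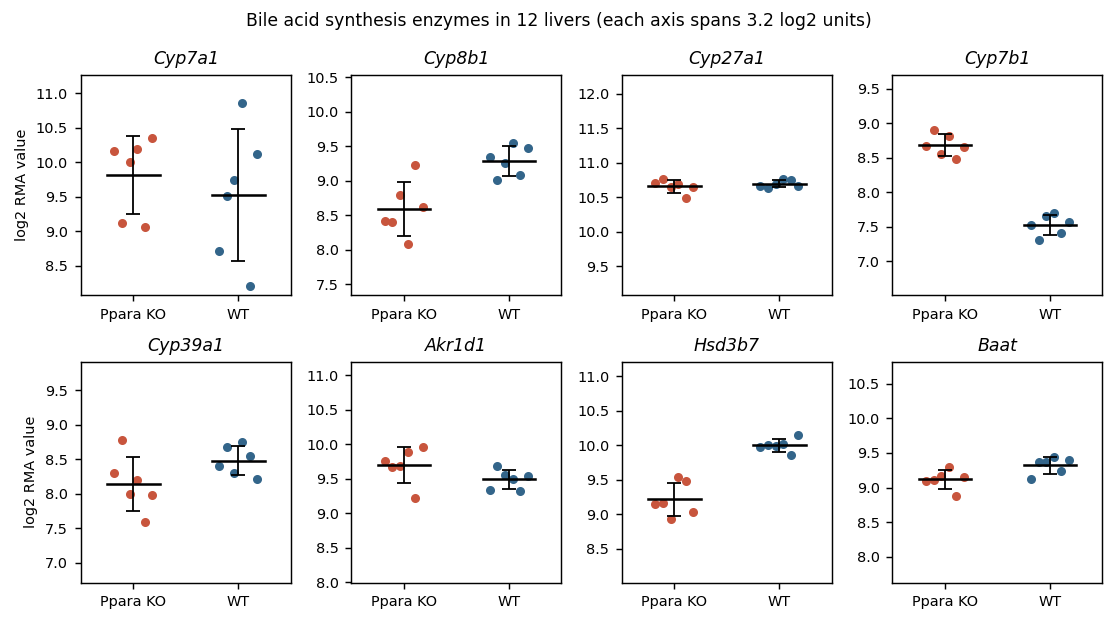
Log2 RMA value of each of the 8 enzyme genes (vertical axes, each spanning the same log2 distance) in Ppara KO livers (left, red) and WT livers (right, blue). Points are single livers, and the bar and whiskers give the mean ± SD (n = 6 each). Cyp7b1 and Hsd3b7 separate completely, Cyp8b1 overlaps through 1 Ppara KO liver, and Cyp7a1 is widely spread in both groups.

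Cyp7a1, which sets the pace of the classic pathway, spanned 9.06 to 10.35 in Ppara KO livers with a median of 10.08, against 8.21 to 10.85 with a median of 9.63 in WT livers. All Ppara KO values lay inside the WT range. The mean was 9.81 ± 0.57 in Ppara KO and 9.52 ± 0.96 in WT (SD, n = 6 each), a difference of 0.29 ± 0.38 (SE). It was not called (limma adjusted p 0.721, exact 2-sided permutation p 0.537). Its 95% interval, -0.51 to 1.09, leaves room for anything between a 1.43-fold lower and a 2.13-fold higher level in Ppara KO, so these 12 livers do not fix the direction. The spread between animals was wide, and highest and lowest livers differed 2.44-fold in Ppara KO and 6.27-fold in WT. Over all 22180 genes, 74 had a larger SD among Ppara KO livers and 11 a larger SD among WT livers, where the median SD of a gene was 0.156 and 0.155. Single WT livers moved the estimate, which was 0.55 without WT 4, the highest, and 0.025 without WT 5, the lowest. Without WT 1, 3 and 5 together the sign turned (-0.35, adjusted p 0.650). The mean level of 8 adipocyte markers was 5.24 to 5.46 in Ppara KO livers, 6.21, 6.89 and 6.94 in WT 1, 3 and 5, and 5.38 to 5.75 in the other WT livers. In WT 1, 3 and 5 Cyp7a1 was at 8.71, 9.74 and 8.21. The part of these cells in the Cyp7a1 values was not tested.

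Cyp8b1 had 8.08, 8.51 and 9.22 as lowest, median and highest value in Ppara KO livers, against 9.01, 9.30 and 9.54 in WT livers. In 5 of 6 Ppara KO livers it lay below every WT liver, and the exception was Ppara KO 5 at 9.22. The mean was 8.59 ± 0.39 in Ppara KO and 9.28 ± 0.21 in WT, and the difference of -0.70 ± 0.16 (SE) was called (limma adjusted p 0.0102, exact 2-sided permutation p 0.00649). The interval, -1.03 to -0.36, covers levels between 2.05-fold and 1.28-fold lower in Ppara KO. In bulk liver RNA, fewer hepatocytes and less RNA per hepatocyte cannot be told apart from Cyp8b1 alone. The 15 hepatocyte markers had 0 calls and a median difference of -0.019. The part of hepatocyte number in the Cyp8b1 difference was not tested. The call outlasted the removal of any single animal, with adjusted p-values from 0.00111 to 0.0254. It ended when 3 WT animals were removed at once, without WT 1, 3 and 5 (-0.76, adjusted p 0.0672) and without WT 1, 2 and 3 (-0.78, adjusted p 0.0577).

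The promoter windows of Cyp8b1 and Hsd3b7, the members that fell, are shown so that the sequence before each start can be read beside the values. Windows of RefSeq (GRCm38.p6) were given for 4 of the 8 members, Cyp8b1, Cyp27a1, Akr1d1 and Hsd3b7, and each holds 250 bases before and 50 bases from the transcription start on. Cyp8b1 lies on the minus strand (chr9:121916256-121916555) and Hsd3b7 on the plus strand (chr7:127800359-127800658). Both are written in the direction of transcription, and capitals mark matches to the motifs searched.
Cyp8b1: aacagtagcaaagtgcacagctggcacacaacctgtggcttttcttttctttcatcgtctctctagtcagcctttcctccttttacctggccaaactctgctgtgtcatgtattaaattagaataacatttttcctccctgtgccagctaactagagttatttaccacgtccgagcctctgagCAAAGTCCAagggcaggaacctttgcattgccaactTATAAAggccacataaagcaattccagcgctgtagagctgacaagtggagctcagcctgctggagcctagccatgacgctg
Hsd3b7: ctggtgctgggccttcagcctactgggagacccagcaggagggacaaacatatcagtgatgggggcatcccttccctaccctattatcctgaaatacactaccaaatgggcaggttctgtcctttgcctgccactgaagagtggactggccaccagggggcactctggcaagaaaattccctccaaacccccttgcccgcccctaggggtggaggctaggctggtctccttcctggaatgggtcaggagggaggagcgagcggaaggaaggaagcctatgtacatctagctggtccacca

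The 7 motifs were searched on both strands. They were the nuclear receptor half-site AGGTCA (found in 16.3% of 32851 windows of this length), the direct repeat of AGGNCA with 1 base between the copies, of the kind bound by PPARα with RXR (0.381%), the HNF4-type element CAAAGTCCA (0.475%) and the NR5A2-type element TCAAGGNCA (1.62%). The others were the clock motifs TTATGTAA, or D-box (0.938%), and CACGTG, or E-box (7.15%), and the TATA box TATAAA (13.6%). A repeat with T for its N also holds the half-site. The Cyp8b1 window held CAAAGTCCA at bases -67 to -59 and TATAAA at -31 to -26, counted from the start. The NR5A2-type element was searched only with T as its first base. The same letters with C first overlap the end of CAAAGTCCA in this window and are not marked. The Akr1d1 window, not printed, held the half-site letters on the other strand at -232 to -227 and at -210 to -205. In the Hsd3b7 and Cyp27a1 windows 0 of the 7 motifs were found. A match is a string of letters and no proof of binding, and its absence concerns these windows alone.

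In the alternative pathway the gene of the opening step was not called and that of the next step rose. Cyp27a1 had 10.49, 10.67 and 10.77 as lowest, median and highest value in Ppara KO livers and 10.63, 10.68 and 10.77 in WT livers. The ranges overlapped, and the mean was 10.66 ± 0.096 in Ppara KO and 10.69 ± 0.051 in WT. The difference was -0.034 ± 0.062 (SE; limma adjusted p 0.814, exact 2-sided permutation p 0.519). Its interval, -0.17 to 0.099, bounds the change to between 1.12-fold lower and 1.07-fold higher in Ppara KO. Without Ppara KO 5, the lowest liver, the difference was 5.17e-04. Cyp27a1 was also the steadiest member between animals, with an SD that 18505 genes exceeded in Ppara KO and 21686 in WT.

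Cyp7b1, which hydroxylates the oxysterols that CYP27A1 makes and is a male-biased gene in mouse liver, was the 1 member that rose. Ppara KO livers had 8.49, 8.67 and 8.91 as lowest, median and highest value, against 7.32, 7.55 and 7.70 in WT livers. Every Ppara KO liver stood above every WT liver, with a gap between the groups wider than the range within either. The difference was 1.15 ± 0.088 (SE), with a 95% interval of 0.97 to 1.34, or 1.95-fold to 2.54-fold higher in Ppara KO (limma adjusted p 8.80e-07). The exact 2-sided permutation p was 0.00216, the smallest that 6 against 6 animals can give. The SD was 0.16 among Ppara KO livers and 0.15 among WT livers, close to the median gene.

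Cyp39a1, an oxysterol hydroxylase that acts on a cholesterol product formed mainly in brain, was at 7.59, 8.10 and 8.77 (lowest, median, highest) in Ppara KO livers and at 8.21, 8.47 and 8.75 in WT livers. Here 4 of 6 Ppara KO livers were below all WT livers, while Ppara KO 2 was above all of them. The difference of -0.34 ± 0.16 (SE) was not called (limma adjusted p 0.212, exact 2-sided permutation p 0.102). Its interval of -0.67 to -0.0034 reaches almost to no change. Without Ppara KO 2 the difference would be called (-0.47, limma adjusted p 0.0383).

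**Figure D2:**
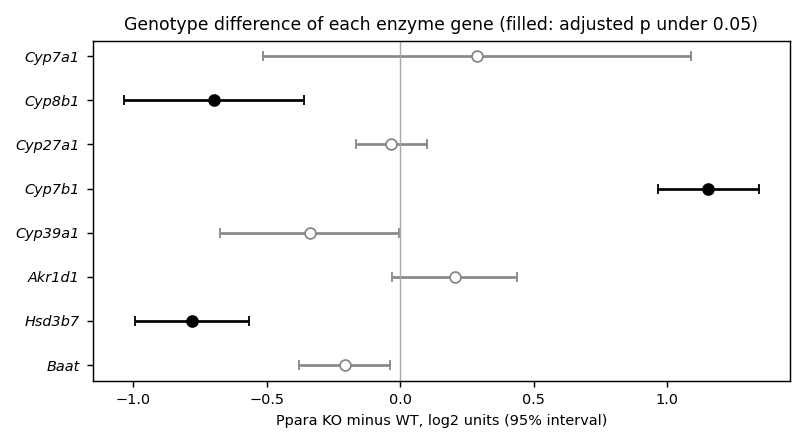
Difference between genotypes for each enzyme gene (horizontal axis, log2 units, Ppara KO minus WT), with the limma estimate as a point and its 95% interval as a line (6 livers per genotype). Filled points had an adjusted p under 0.05: Cyp7b1 at 1.15, Cyp8b1 at -0.70 and Hsd3b7 at -0.78. Cyp7a1 has the widest interval and Cyp27a1 the narrowest.

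Among the enzymes that serve both pathways, Hsd3b7 fell. It encodes the steroid dehydrogenase that acts right after ring hydroxylation, whichever pathway supplied the substrate. Its values were 8.94, 9.16 and 9.54 (lowest, median, highest) in Ppara KO livers and 9.86, 9.996 and 10.15 in WT livers, with no overlap. The mean was 9.22 ± 0.24 in Ppara KO and 9.997 ± 0.093 in WT, a difference of -0.78 ± 0.10 (SE) with an interval of -0.99 to -0.57 (limma adjusted p 1.49e-04, exact 2-sided permutation p 0.00216). With any single animal left out the difference ran from -0.84 to -0.72 and stayed called.

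Akr1d1, the reductase that gives the steroid ring its bent shape, did not pass the test. It was at 9.22, 9.72 and 9.96 (lowest, median, highest) in Ppara KO livers and at 9.33, 9.52 and 9.68 in WT livers. Here 4 of 6 Ppara KO livers exceeded every WT liver, but Ppara KO 5 lay below all of them. The difference was 0.20 ± 0.11 (SE; interval -0.029 to 0.44, limma adjusted p 0.290, exact 2-sided permutation p 0.108). Without Ppara KO 5 it would be called (0.30, limma adjusted p 0.0398).

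Baat, the conjugating enzyme, had 8.87, 9.13 and 9.30 as lowest, median and highest value in Ppara KO livers, against 9.12, 9.37 and 9.44 in WT livers. The ranges overlapped, with 3 Ppara KO livers below every WT liver. Its difference of -0.21 ± 0.081 (SE) had an interval of -0.38 to -0.036, at most 1.30-fold lower in Ppara KO. It was not called over all genes (limma adjusted p 0.126), and the exact 2-sided permutation p of this gene alone, without adjustment, was 0.0195.

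Each pathway was also read as a pair of genes in each liver. With each gene taken relative to its WT mean, the mean of Cyp27a1 and Cyp7b1 was at 0.38 to 0.73 in Ppara KO livers and -0.14 to 0.12 in WT livers. This separation came from Cyp7b1, at 0.96 to 1.38 in Ppara KO livers, where Cyp27a1 was at -0.21 to 0.076. The mean of Cyp7a1 and Cyp8b1 was at -0.64 to 0.079 in Ppara KO livers, inside the WT range of -0.76 to 0.79. The classic mean minus the alternative mean ran from -1.37 to -0.47 in Ppara KO livers and from -0.72 to 0.67 in WT livers. The balance of all 4 genes thus overlapped between genotypes, through WT 5 (-0.72) alone. The other WT livers were at -0.36 or above. For Cyp8b1 minus Cyp7b1 there was no overlap, as for Cyp7b1 by itself, with -2.50 to -1.02 in Ppara KO livers and -0.16 to 0.15 in WT livers. These scores rest on members described above and carry no test. Values of different genes on an array are not on 1 scale, so none of this gives the flux through either pathway.

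Some livers were the lowest or highest of their genotype for several members, a count that carries no test. Ppara KO 5 was the lowest Ppara KO liver for 6 of the 8 genes and the highest for Cyp8b1, whereas WT 4 was the highest WT liver for 6 of the 8. Over all genes both arrays were the lowest of their genotype by a small margin: the mean correlation with the other livers of the same genotype was 0.9915 for Ppara KO 5, against 0.9920 to 0.9925 in the other Ppara KO livers, and 0.9918 for WT 4, against 0.9919 to 0.9925 in the other WT livers. Hepatocyte markers averaged 11.57 in Ppara KO 5 and 11.65 in WT 4.

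**Figure D3:**
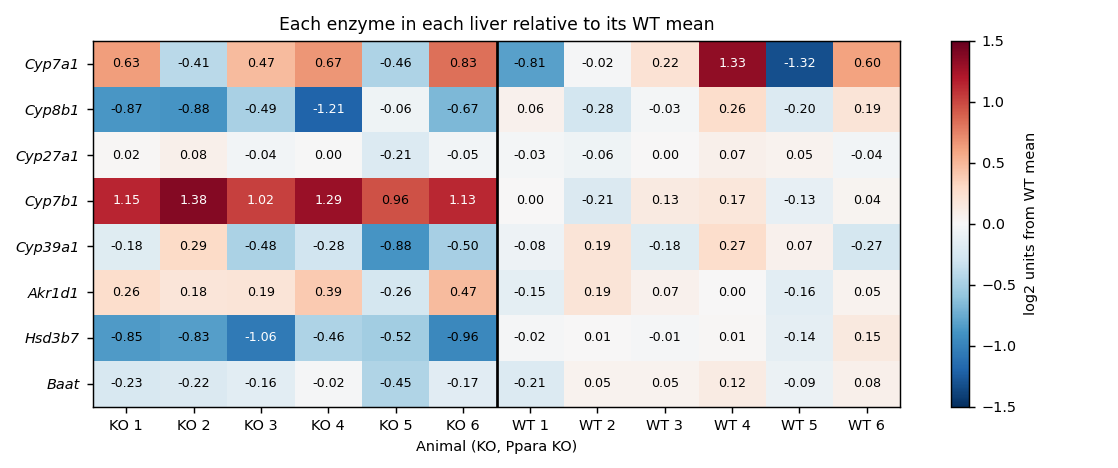
Value of each enzyme gene (rows) in each liver (columns, Ppara KO left and WT right) relative to the mean of the 6 WT livers, in log2 units, printed in each cell and coloured from blue (lower) to red (higher). Cyp7b1 is high and Hsd3b7 low in all 6 Ppara KO livers, and Cyp8b1 is near the WT mean in Ppara KO 5 (-0.06).

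Correlations between members were computed within each genotype, 28 pairs in each and 56 in all, over 6 livers. Of the 56, 8 had an unadjusted exact permutation p under 0.05 and 0 an adjusted one, where the smallest adjusted value was 0.0778. Cyp7a1 and Cyp8b1 had r = -0.49 (rho -0.43, exact permutation p 0.340 and 0.419, adjusted 0.685 and 0.810) in Ppara KO livers. In WT livers they had r = 0.66 (rho 0.71, exact permutation p 0.151 and 0.136, adjusted 0.530 and 0.586). Without the 2 livers farthest from the median of Cyp7a1, r was -0.28 in Ppara KO and 0.18 in WT over the 4 livers left in each, a narrower range of Cyp7a1. Cyp27a1 and Cyp7b1, the alternative pair, had r = 0.85 (rho 0.89, exact permutation p 0.0250 and 0.0333, adjusted 0.300 and 0.233) in Ppara KO and r = 0.46 (rho 0.60, exact permutation p 0.344 and 0.242, adjusted 0.685 and 0.796) in WT. Without the 2 livers farthest from the median of Cyp27a1, r was 0.58 in Ppara KO and 0.92 in WT. The points of a pair share their arrays, and the difference between genotypes was not tested.

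**Figure D4:**
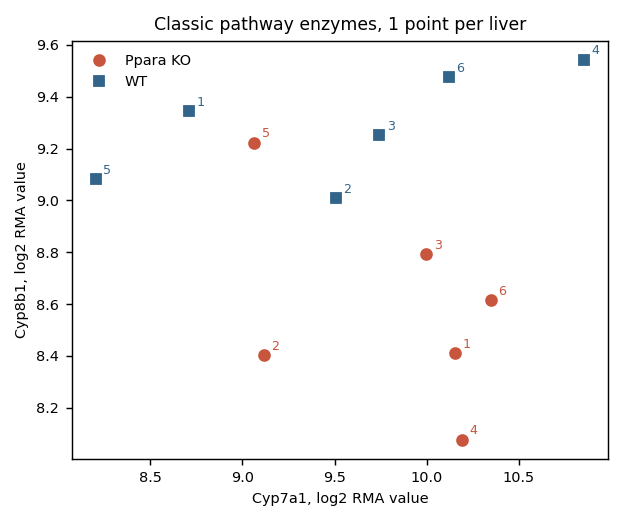
Cyp8b1 (vertical axis) against Cyp7a1 (horizontal axis), both as log2 RMA values, with 1 numbered point per liver (red circles, Ppara KO; blue squares, WT). At similar Cyp7a1 values the Ppara KO livers lie lower in Cyp8b1, except Ppara KO 5 at 9.22.

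For 5 members the genes with the most similar course between animals were looked up, by Pearson's r over 12 arrays with each genotype centred on its mean, among 10404 named genes at or above the median level. The closest were D2hgdh (r 0.947), Ptpn3 (0.946) and Rnf40 (0.913) to Cyp7a1, and Ptafr (0.899), Atg14 (0.860) and Fam170b (0.857) to Cyp8b1. Ppp1r21 (0.925), Lce3d (0.923) and Ppp2ca (0.907) were closest to Cyp27a1, and Ccdc58 (0.910), Zfp148 (0.890) and Kmt2b (0.878) to Cyp7b1. Nr1h3 (0.902), the gene of the oxysterol receptor LXRα, Zfp358 (0.862) and Slc29a3 (0.858) were closest to Hsd3b7. With this many genes searched over 12 arrays, high values are to be found for any gene, and they are given as a description.

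Other enzymes of the synthesis route moved in both directions, with 4 higher, 4 lower and 8 uncalled of 16 measured (median difference 0.085). Over all genes, 4.46% were called higher and 5.77% lower, shares to be read beside this list and those below. In the fit limited to genes with a mean of at least 5, 2774 of 9748 were called, 1274 of them higher. These larger shares apply to lists of brighter genes. Hsd17b4, the bifunctional protein of peroxisomal side-chain shortening, fell to 9.61 ± 0.088 in Ppara KO, against 10.25 ± 0.025 in WT (-0.64 ± 0.059 SE, limma adjusted p 5.73e-06). The other falls were small: Acox2, the oxidase before it (-0.29 ± 0.083 SE), Abcd3, a peroxisomal transporter (-0.28 ± 0.080), and Cyp2c70, which makes the muricholic acids of mice (-0.24 ± 0.072). The 3 genes were close to the threshold, with limma adjusted p-values of 0.0355, 0.0358 and 0.0496. Acox2 and Abcd3 each lost the call without any 1 of 7 animals (adjusted p 0.0510 to 0.0757 and 0.0524 to 0.0732), and Cyp2c70 without any 1 of 11, all except Ppara KO 2 (0.0515 to 0.100). Acox2 kept it without Ppara KO 2 or 4 or WT 4, 5 or 6, and Abcd3 without Ppara KO 1, 2 or 4 or WT 2 or 6.

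The 4 rises were the steroid oxidoreductase genes Hsd17b6 (1.14 ± 0.13 SE) and Akr1c14 (0.67 ± 0.077), the lipid-binding protein gene Stard5 (0.37 ± 0.073) and Cyp46a1, the cholesterol hydroxylase known from brain (0.42 ± 0.091), with limma adjusted p-values from 5.07e-05 to 0.00825. Cyp46a1 was dim, at 5.48 ± 0.15 in Ppara KO and 5.06 ± 0.17 in WT. The peroxisomal thiolase gene Scp2 (0.20 ± 0.082 SE) and the acyl-CoA synthetase genes Slc27a5, which activates bile acids for conjugation (0.0087 ± 0.063), and Slc27a2 (-0.055 ± 0.069) were not called.

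Of 21 regulators of the pathway measured, 1 was called higher and 3 lower (median difference -0.061). Nr1i3, the gene of the xenobiotic receptor CAR, rose by 0.75 (SE 0.071, limma adjusted p 8.11e-06). Zfp36l1, which encodes an mRNA decay factor, fell by 0.55 (SE 0.095), and the liver transcription factor genes Foxa2 (-0.48 ± 0.11 SE) and Gata4 (-0.33 ± 0.095) fell as well. The call of Gata4 ended without any 1 of 8 animals, all except Ppara KO 2, 3 and 4 and WT 4 (adjusted p 0.0638 to 0.0853). The transcription factor gene Hnf4a (0.12 ± 0.071 SE), Rxra (0.049 ± 0.064), which encodes a receptor partner of PPARα and FXR, and Prox1 (0.32 ± 0.11) were not called, although Prox1 would be without Ppara KO 5 (adjusted p 0.0430) or without WT 4 (0.0137). The genes of the feedback loop were singled out after their values were seen, and none of these 5 was called. Nr1h4, which encodes FXR, differed by 0.16 ± 0.065 (SE) and Nr0b2, its target that represses Cyp7a1 and Cyp8b1, by -0.42 ± 0.21, with an SD of 0.27 in Ppara KO and 0.53 in WT. Nr5a2, which activates Cyp8b1, differed by -0.088 ± 0.069, and Fgfr4 and Klb, the hepatocyte receptor and coreceptor for the gut signal FGF15, by -0.073 ± 0.073 and 0.10 ± 0.10. Their limma adjusted p-values lay between 0.152 and 0.623.

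Transporters of bile acids and sterols had 5 higher and 1 lower of 13 (median difference 0.20). The uptake carrier genes Slco1a1 (1.11 ± 0.13 SE), Slco1a4 (0.83 ± 0.10) and Slco1b2 (0.29 ± 0.062) rose, as did Abcc3 (0.62 ± 0.069), an exporter toward blood, and Abcc2 (0.27 ± 0.076), an exporter of conjugates toward bile. Abcb11, the bile salt export pump gene, fell to 10.22 ± 0.37 in Ppara KO, against 10.94 ± 0.076 in WT (limma adjusted p 0.00289). The main uptake carrier gene Slc10a1 (0.15 ± 0.063 SE), the phospholipid transporter gene Abcb4 (-0.18 ± 0.084) and the sterol transporter gene Abcg8 (-0.050 ± 0.12) were not called. The call of Abcc2 ended without any 1 of 7 animals, all except Ppara KO 2, 4 and 5 and WT 5 and 6 (adjusted p 0.0534 to 0.0717).

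Of 16 genes that modify bile acids or supply their conjugation, 5 rose and 3 fell (median difference 0.021). Csad, an enzyme of the synthesis of taurine, with which mouse bile acids are mostly conjugated, was 1.97-fold higher (9.63 ± 0.38 in Ppara KO and 8.65 ± 0.26 in WT, limma adjusted p 0.00120), while Cdo1, the step before it, differed by -0.020 ± 0.056 (SE) without a call. Ephx1, an epoxide hydrolase gene (0.43 ± 0.073 SE), and Sult2a8, a bile acid sulfotransferase gene (0.36 ± 0.064), rose, as did Hsd3b2 (0.47 ± 0.13) and Hsd11b1 (0.25 ± 0.066), both of steroid metabolism. The sulfotransferase genes Sult2a1 (-3.09 ± 0.37 SE) and Sult2a2 (-2.39 ± 0.43) fell. Sult2a1 was dim, at 2.22 to 4.72 in Ppara KO livers and 5.48 to 7.23 in WT livers, and 5 of the 6 Ppara KO values lay below the array medians, so its size of change is uncertain. Both genes were highest among Ppara KO livers in Ppara KO 6, and their close sequences may share probes, which was not tested. Akr1c20, an aldo-keto reductase gene, fell by 0.39 (SE 0.11). Calls ended without any 1 of 7 animals for Hsd3b2 (all except Ppara KO 1 and 5 and WT 2, 3 and 6, adjusted p 0.0673 to 0.0803), of 9 for Akr1c20 (all except Ppara KO 2 and 4 and WT 4, 0.0515 to 0.0884) and of 3 for Hsd11b1 (Ppara KO 1, 2 and 6, 0.0504 to 0.0533). The P450 genes Cyp3a11 (0.063 ± 0.087 SE) and Cyp3a13 (-0.054 ± 0.11) were not called.

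**Figure D5:**
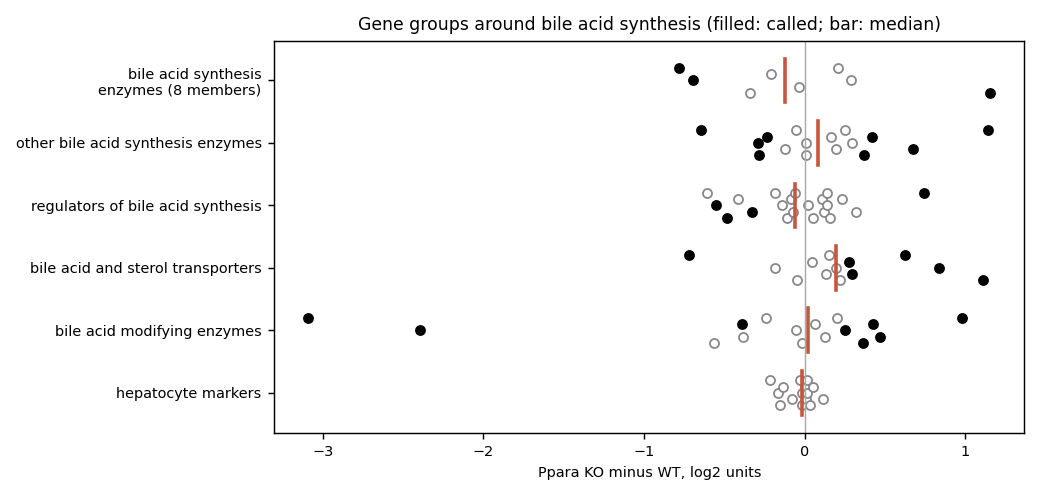
Difference of each gene (horizontal axis, log2 units, Ppara KO minus WT) for the 8 enzyme genes and 5 further lists (rows, shifted vertically to avoid overlap). Filled circles were called, open circles were not, and the red bar is the median of the list. Calls point both ways in every list that has any, and 0 of the 15 hepatocyte markers were called.

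Beside these differences the genotypes also differed in the circadian clock, which drives a daily rhythm of Cyp7a1 in mouse liver. Of 17 clock genes measured, 11 were higher and 4 lower (Npas2, Arntl, Clock and Nfil3) in Ppara KO, against 4.46% and 5.77% of all genes. Dbp, the gene of a D-box factor known to activate Cyp7a1, was at 9.05 to 10.17 in Ppara KO livers and 5.99 to 7.09 in WT livers, and Npas2 at 4.05 to 4.63 in Ppara KO livers and 7.60 to 7.95 in WT livers. Per3 (3.04 ± 0.16 SE), Tef (2.21 ± 0.11) and Nr1d2 (1.97 ± 0.13), all under clock control, were higher too. Npas2 in Ppara KO livers and Per3 in WT livers (4.14 to 4.60) were close to the array medians of 4.13 to 4.17. The sizes of these changes are therefore uncertain. Tef has 2 transcript clusters, and with their mean in place of the brightest its difference was 1.44 (limma adjusted p 3.83e-07). Since the clock genes and the genotypes separate the same 12 livers, the clock state and the genotype cannot be told apart for any member. Uncalled clock genes were Rora (0.034 ± 0.065 SE) and Cry1 (-0.056 ± 0.16).

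Genes known to differ between the sexes in mouse liver were read beside Cyp7b1, which was kept out of these lists. Of 16 male-biased genes 7 rose and 2 fell (Selenbp2 and Elovl3), with a median difference of 0.23 and a mean level of 6.58 to 7.13 in Ppara KO livers and 6.49 to 6.77 in WT livers. Among 16 female-biased genes there were 6 falls and 4 rises (Fmo2, Cyp2a4, Cyp17a1 and Acot3), with a median of -0.10 and a mean level of 7.48 to 8.12 in Ppara KO livers and 8.23 to 8.59 in WT livers. The largest falls were in Cyp3a16 (-3.80), Sult2a1 (-3.09), A1bg (-2.91) and Abcd2 (-2.10), while the 4 rises were at most 0.86 (Cyp2a4). Cyp3a16 was at 2.38 to 3.94 in Ppara KO livers, below the array medians, so its size of change is uncertain, like that of Sult2a1. Slco1a1, in the male-biased list, and Sult2a1 were also counted above among transporters and modifying genes. The part of these lists in the Cyp7b1 difference was not tested.

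Markers of other cells were counted in the same way, where 10.2% of all genes were called. Cholangiocyte markers had 2 falls (Krt19 and Sox9) and 0 rises of 9, with a mean level of 4.09 to 4.60 in Ppara KO livers and 4.31 to 4.46 in WT livers. This is close to the array medians of 4.13 to 4.17, so the list is dim. Macrophage markers had 1 rise (Cd5l) of 9, at 7.61 to 8.38 in Ppara KO and 7.37 to 7.78 in WT. The cholangiocyte and macrophage lists each held 3 genes at an unadjusted p under 0.05. Adipocyte markers had 2 falls (Adipoq and Lipe) of 8, with 6 of 8 at an unadjusted p under 0.05 and a median difference of -0.75. Sinusoidal endothelial and stellate markers, 8 each, and 7 markers of lymphocytes and neutrophils had 0 calls by limma, as had 7 of pancreas and gut. At an unadjusted p under 0.05 these lists held 4, 3, 0 and 0 genes, in the order named. Along the lobule, 10 pericentral markers had 4 rises (Cyp2e1, Cyp1a2, Oat and Slc1a2) and 2 falls (Lgr5 and Gstm3), at 9.66 to 9.84 in Ppara KO and 9.57 to 9.79 in WT, and 7 periportal markers had 1 rise (Pck1) and 1 fall (Cdh1). Without adjustment, 8 of 10 pericentral and 5 of 7 periportal markers had a limma p under 0.05. The part of these cell types and zones in the members' differences was not tested.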

How the data were processed

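The values deposited by the authors are on a log2 scale; RMA and Partek are named, without versions, per the submitters' processing notes. The table held 41345 transcript clusters, of which the platform annotation gave 23521 a single symbol, 1814 several and 16010 none; 23328 were matched by Entrez identifier to RefSeq (GRCm38.p6). Clusters with 1 symbol were used, and of several for 1 gene the brightest on average was kept. No filter on low values was applied, and all 8 members were tested.

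Genotypes were compared by limma 3.58.1 under R 4.3.3 (lmFit and eBayes, 1 mean per genotype, no covariate, 2-sided), with Benjamini-Hochberg adjustment over 22180 genes. The fit was tested on simulated data. The exact permutation test used all 924 assignments of 6 and 6 animals. Replicates are mice that the labels number separately. Precision is limited by the number of arrays, and the SE of a difference had a median of 0.0926.

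The members and gene lists were chosen with earlier results of these data known. Genes named beside the members were, per list, up to 5 called genes by adjusted p and up to 3 uncalled genes by level. Names added where a count was 5 or fewer, and those of the 5 feedback genes, Akr1c20, Hsd11b1 and Hsd3b2, were chosen after their values were seen. The 25 alternatives changed the variance prior, array weights, scaling, filter, cluster choice, threshold, replicate block or animals. Promoter windows are from RefSeq.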

Additional observations from a re-analysis of the deposited data

Results flagged for a closer look

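A single liver far from the other 5 of its genotype, by the ratio of its gap to the range of the group, was found in 9 of 116 groups (58 genes in 2 genotypes), where chance gives about 1 in 20. In the 16 groups of the 8 enzyme genes there were 0. Cyp2c70 was at 11.94 in WT 4, with the next WT liver at 11.77. Hsd11b1 was at 9.99 in Ppara KO 5, with the next Ppara KO liver at 10.23. Cyp46a1 was at 5.38 in WT 2, where the others reached 5.07, and Prox1 at 9.43 in WT 4, where they reached 8.99. Abcb4, the phospholipid transporter gene of bile, was at 8.92 in Ppara KO 3, where the others began at 9.24. Among clock genes, Npas2 was at 4.63 in Ppara KO 5 (others up to 4.23) and at 7.95 in WT 6 (others up to 7.70), Dbp at 7.09 in WT 2 (others up to 6.33) and Cry1 at 6.84 in Ppara KO 2 (others up to 6.04).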

How the results depend on the processing

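The calls of Cyp7b1 and Hsd3b7 held in all 25 alternatives (differences 1.11 to 1.19 and -0.84 to -0.72), and that of Cyp8b1 in all except 3: an adjusted p under 0.01 (difference -0.70, adjusted p 0.0102), without WT 1, 3 and 5 (-0.76) and without WT 1, 2 and 3 (-0.78). Both removals leave fewer animals. Baat was called in none, with adjusted p-values from 0.0508 to 0.234. Leaving out single animals gave -0.47 to -0.23 for Cyp39a1, 0.15 to 0.30 for Akr1d1, -0.056 to 5.17e-04 for Cyp27a1, 0.025 to 0.55 for Cyp7a1 and -0.82 to -0.60 for Cyp8b1; Cyp39a1 gained a call without Ppara KO 2 and Akr1d1 without Ppara KO 5. Cyp7a1 turned to -0.35 without WT 1, 3 and 5; the cause was not tested. Over all genes 2268 calls became 1070 at an adjusted p under 0.01, 1008 without WT 1, 3 and 5, 882 without WT 1, 2 and 3, and 1817 to 2130 without single animals.

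With the replicate number as a block, 1672 genes were called and 3 members, the same 3 as without it (Cyp8b1 adjusted p 0.0329, Hsd3b7 0.00209). The labels do not say whether the numbers pair animals. Over all genes, same-numbered deviations from the genotype means correlated at -0.047 to 0.043, and 0 of 6 Ppara KO animals matched their own number best. These values show no pairing over all genes and cannot exclude one that touches few of them.

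For 50 other named genes 1249 values were recomputed, an addition made after the data were seen: 111 lost a call (14 genes), 5 gained one, and 12, all of uncalled genes, changed sign. Among calls that held without any single animal, those of Cyp46a1, Stard5 and Sult2a2 ended without WT 1, 3 and 5 (adjusted p 0.0603 to 0.111), that of Abcb11 without WT 1, 2 and 3 (0.0533), and those of Foxa2 and Slco1b2 in both cases (0.0512 to 0.194). The sign changes were in Slc27a5 (-0.011 to 0.030 without single animals), Cdo1 (-0.032 to 6.63e-04), Cyp3a13 (-0.11 to 0.015), Cry1 (-0.22 to 0.0034), Abcg8 (-0.13 to 0.026, then 0.13 without WT 1, 3 and 5 and 0.0071 without WT 1, 2 and 3) and Slc27a2 (0.025 without WT 1, 3 and 5).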
